A study of Mus musculus with 2 samples.

Results

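The 10 alpha and beta tubulin genes Tuba1a, Tuba1b, Tuba1c, Tuba4a, Tubb2a, Tubb2b, Tubb3, Tubb4a, Tubb4b and Tubb5 were followed in total RNA-seq of the embryonic mouse hindbrain. They were chosen by symbol, matched on gene identifiers without version, and all 10 were found among 43346 genes in the deposited tables, 4 of them alpha and 6 beta isotypes. The tissue was the hindbrain of B6NCrl embryos at 14.5 days of gestation, in 2 replicates that form 1 group, so the study holds no second condition. Per the labels each replicate was 1 hindbrain, the sex is given as pooled, and the days of collection differed. Each library was made from 10 ng of RNA above 200 nt, with spike-in RNAs added. Levels are given as TPM, which are scaled by transcript length and library total, so isotypes can be compared with each other.

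Microtubules are hollow polymers of dimers that each hold an alpha and a beta tubulin. Mammals carry several genes for each, called isotypes, whose products differ mainly in the acidic tail at the carboxyl end, where motors and modifying enzymes bind. In the developing brain microtubules form the mitotic spindle of progenitors and the core of growing axons and dendrites, and mutations in several isotype genes cause cortical and cerebellar malformations in humans. Bulk RNA of a tissue gives the sum over its cells, and fewer cells of a type and less RNA per cell cannot be told apart.

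The tails show where several of the isotypes whose RNA was measured differ. The last 60 coding bases before the stop codon are given for Tuba4a and for each beta isotype, from the GENCODE M21 transcript that carries both a start and a stop codon (GRCm38, the same assembly as mm10). For Tuba4a the capitals mark the final codon, since the final residue of alpha tubulin is removed and restored in a cycle of detyrosination and tyrosination.
Tuba4a: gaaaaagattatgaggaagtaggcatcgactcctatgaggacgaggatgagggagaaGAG
These bases lie at chr1:75215625-75215684 (minus strand). The final codon encodes glutamate in Tuba4a and tyrosine in the other 3 alpha isotypes, so that a Tuba4a product carries no encoded final tyrosine. For the beta isotypes the capitals mark codons for glutamate and aspartate, the acidic residues; enzymes attach glutamyl and glycyl chains to the glutamates.
Tubb2a: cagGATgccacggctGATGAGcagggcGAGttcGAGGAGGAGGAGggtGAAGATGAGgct
Tubb2b: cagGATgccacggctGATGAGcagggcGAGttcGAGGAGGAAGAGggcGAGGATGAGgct
Tubb3: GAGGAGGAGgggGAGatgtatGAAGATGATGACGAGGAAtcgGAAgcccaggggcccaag
Tubb4a: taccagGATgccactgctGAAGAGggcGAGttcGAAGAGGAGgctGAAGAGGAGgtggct
Tubb4b: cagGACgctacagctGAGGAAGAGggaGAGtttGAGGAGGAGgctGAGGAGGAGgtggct
Tubb5: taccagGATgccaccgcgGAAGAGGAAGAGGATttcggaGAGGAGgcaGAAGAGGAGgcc
These bases lie at chr13:34074471-34074530 (Tubb2a, minus strand), chr13:34127474-34127533 (Tubb2b, minus strand), chr8:123421620-123421679 (Tubb3, plus strand), chr17:57080693-57080752 (Tubb4a, minus strand), chr2:25222311-25222370 (Tubb4b, minus strand) and chr17:35834985-35835044 (Tubb5, minus strand). Of the last 20 codons, 11 are acidic in Tubb2a, Tubb2b, Tubb3, Tubb4b and Tubb5 and 10 in Tubb4a. The ends of Tubb2a and Tubb2b differ at 3 of 60 bases, none of which changes the encoded residue, so their encoded tails are the same. Tubb3 alone among the 6 beta isotypes ends in a lysine codon, and the other 5 end in an alanine codon.

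The opposite end of the coding sequence is shared. Tubulin mRNA is degraded when free tubulin dimers are in excess, and the factor encoded by Ttc5 is known from human cells to recognise the first residues of the nascent chain in that process. The first 12 coding bases are given, with the codons for residues 2 to 4 in capitals, once for each distinct form.
Tuba1a: atgCGTGAGTGC
Tuba4a: atgCGCGAGTGC
Tubb2a: atgCGCGAGATC
Tubb2b: atgCGAGAGATC
Tubb3: atgAGGGAGATC
Tubb4a: atgCGGGAAATC
Tubb5: atgAGGGAAATC
All 4 alpha isotypes encode the same residues 2 to 4, through 2 forms of the bases, of which the Tuba1a form is also that of Tuba1b and Tuba1c. All 6 beta isotypes encode the same residues 2 to 4 through 5 forms, and Tubb4b has the Tubb3 form. The beta starts lie at chr13:34077918-34077929 (Tubb2a, minus strand), chr13:34130222-34130233 (Tubb2b, minus strand), chr8:123411606-123411617 (Tubb3, plus strand), chr17:57087502-57087513 (Tubb4a, minus strand) and chr17:35838042-35838053 (Tubb5, minus strand). In the alpha isotypes the start codon is the whole coding part of its exon (3 bases, against 57 bases in each beta isotype), so the 12 bases are joined across an intron at chr15:98951683-98953453 (Tuba1a, minus strand) and chr1:75217426-75219195 (Tuba4a, minus strand). Each of the 10 genes has 4 exons and 4 coding exons in the transcript used.

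The proteins encoded by the isotypes were nearly alike within each class. Identity, as the share of all alignment positions with gaps counted as different, lay between 95.8% and 99.6% in the 6 alpha pairs. It lay between 90.7% and 99.6% in the 15 beta pairs. In the 24 pairs of an alpha with a beta isotype it lay between 39.1% and 41.4%. The Tuba1a and Tuba1b products differ at 2 residues, as do those of Tubb2a and Tubb2b. Tubb4a and Tubb4b differ at 6 residues, with 1 more in a gap. Tubb3 stood apart from the other beta isotypes, with 32 to 36 residues different and 5 or 6 in gaps. The pairs with near-identical products were neighbours on the genome in 2 cases. Tuba1b (chromosome 15, 98931425 to 98934565) lies 15.3 kb from Tuba1a (98949837 to 98953703), which lies 76.2 kb from Tuba1c (99029891 to 99038110). Tubb2a (chromosome 13, 34074274 to 34078007) lies 48.7 kb from Tubb2b (34126748 to 34130466). Tuba4a is on chromosome 1, Tubb4b on chromosome 2, Tubb3 on chromosome 8, and Tubb4a and Tubb5 are on chromosome 17.

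**Figure D1:**
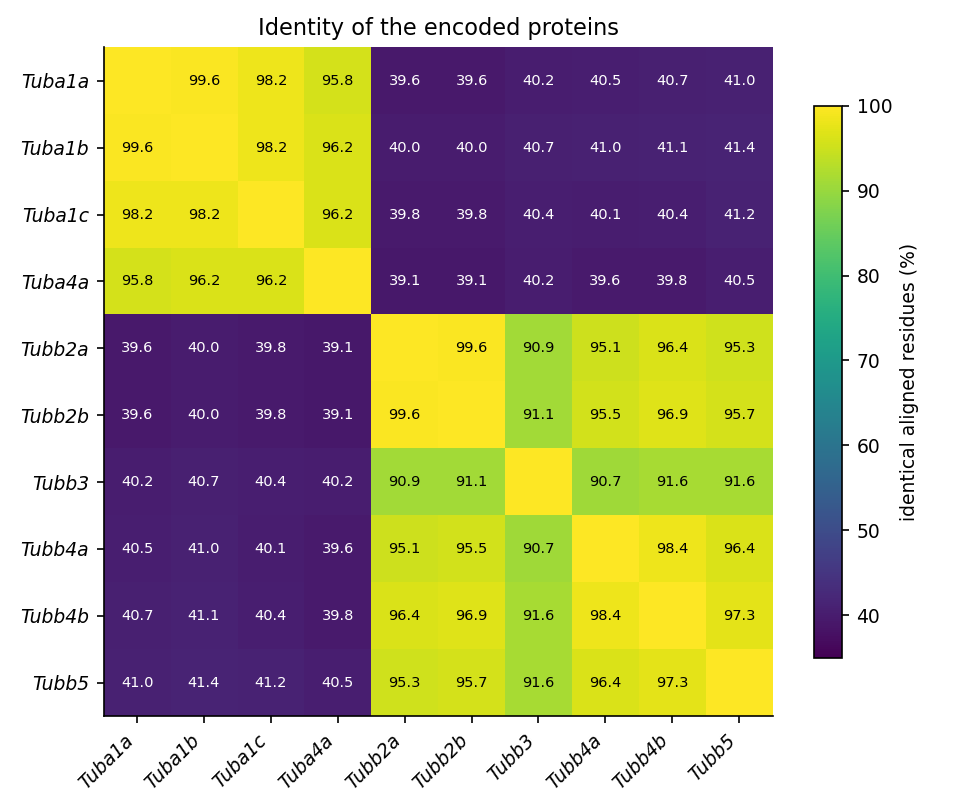
Identity of the encoded proteins for each pair of the 10 isotypes, as the percentage of all alignment positions, gaps included, with identical residues. Alpha isotypes are in the upper left block and beta isotypes in the lower right block. Pairs within a class lie above 90%, and pairs of an alpha with a beta isotype lie between 39.1% and 41.4%.

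The depth behind the levels was 34929425 expected counts in replicate 1 and 33510896 in replicate 2 over all features. Genes took 33727977 and 32450699 of these, and spike-in RNAs took 8.15% and 7.72% of all TPM, which lowers every TPM of a gene by about that share. Markers of the labelled tissue were present. Hindbrain genes reached 1 TPM in both replicates in 5 of 6 cases (summed level 352.4 and 330.1 TPM), and the forebrain genes in 0 of 3 (0.19 and 0.49 TPM). Neuronal genes did so in 10 of 10 cases (4462 and 4819 TPM), progenitor and radial glia genes in 7 of 7 (2507 and 2522 TPM), dividing cell genes in 5 of 5 (217.2 and 251.8 TPM) and oligodendrocyte lineage genes in 4 of 4 (107.2 and 136.0 TPM). Genes of non-neural cells were detected as well, with endothelium at 3 of 3 (122.1 and 120.4 TPM), microglia at 3 of 3 (79.6 and 82.3 TPM) and meninges and fibroblasts at 4 of 4 (691.5 and 577.0 TPM). Red cell genes reached the level in 5 of 5 cases (11819 and 14037 TPM), and choroid plexus genes in 2 of 3 (1880 and 1130 TPM). In an exact binomial test of the counts, scaled by gene totals, 5 of 5 red cell genes, 3 of 5 dividing cell genes and 3 of 4 oligodendrocyte lineage genes were called higher in replicate 2, and 4 of 4 meningeal and 5 of 6 hindbrain genes lower, against 15.6% higher and 18.3% lower of all genes tested. The median log2(TPM + 1) ratio of replicate 2 over replicate 1 was 0.24, 0.33, 0.29, -0.26 and -0.15 in these 5 lists. Of 10 neuronal genes 2 were called higher and 3 lower, and of 7 progenitor and radial glia genes 2 and 2. Of 3 endothelial genes 0 were called higher and 1 lower, and of 3 microglial genes 0 and 0. The marker calls were made with gene totals alone. The choroid plexus genes Ttr and Folr1 were called lower and Kl, at 0.89 and 1.47 TPM, was called higher, so that the summed level rests on Ttr (1825 and 1094 TPM). The part of these cell types in the tubulin levels was not tested.

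Tubulin RNA was abundant, and alpha tubulin RNA came almost wholly from Tuba1a. The 10 isotypes summed to 19410 TPM in replicate 1 and 21339 TPM in replicate 2, which is 1.94% and 2.13% of all TPM (mean 2.04% ± 0.136, SD, n = 2). In expected counts they held 2.01% and 2.10% of all reads assigned to genes. Of the 10 isotypes, 5 ranked among the 100 genes with the highest mean TPM, and all 10 reached 1 TPM in both replicates.

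Tuba1a, the main alpha tubulin of newly formed neurons, stood at 12575 TPM in replicate 1 and 13760 TPM in replicate 2. It ranked 1 of all genes in both libraries, by TPM and also by expected count, with 413714 and 413948 expected counts, or 1.23% and 1.28% of the reads of all genes. Its share of the alpha sum was 92.9% in replicate 1 and 92.1% in replicate 2 (mean 92.5% ± 0.518, SD, n = 2). Tuba1a by itself exceeded all 6 beta isotypes together, by 2.14 times in replicate 1 and 2.15 times in replicate 2.

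Tuba1b, an alpha tubulin used in most dividing and non-dividing cells, had 938.8 TPM in replicate 1 and 1144 TPM in replicate 2. It ranked 84 by mean TPM and held 6.93% and 7.66% of the alpha sum (7.29% ± 0.512). Tuba1a thus exceeded its near-identical neighbour by 13.4 times in replicate 1 and 12.0 times in replicate 2. Both replicates of Tuba1a lay far above both of Tuba1b.

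The other two alpha isotypes were minor. Tuba1c, a broadly expressed alpha tubulin encoded next to Tuba1a, had 17.9 and 16.3 TPM in replicates 1 and 2, or 0.132% and 0.109% of the alpha sum. Tuba4a, the isotype without an encoded final tyrosine, known from adult neurons and platelets, had 10.7 and 16.5 TPM, or 0.0789% and 0.110% of the alpha sum. They ranked 7567 and 8468 by mean TPM. Weighted by TPM, 99.9% ± 0.0222 of alpha tubulin RNA encoded a final tyrosine and 0.0946% ± 0.0222 a final glutamate.

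Beta tubulin RNA was spread over several isotypes. Tubb2a, a beta tubulin abundant in neurons, led with 2014 TPM in replicate 1 and 2312 TPM in replicate 2 and ranked 35 by mean TPM. Its share of the beta sum was 34.3% and 36.1% (35.2% ± 1.26, SD, n = 2). Its neighbour Tubb2b, a beta tubulin needed for neuronal migration, had 639.3 and 688.0 TPM, or 10.9% and 10.7% of the beta sum (10.8% ± 0.107). Tubb2a exceeded Tubb2b by 3.15 times in replicate 1 and 3.36 times in replicate 2.

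Tubb3 and Tubb5 were close to each other. Tubb3, the isotype confined largely to neurons and used as their marker, had 1354 TPM in replicate 1 and 1427 TPM in replicate 2. Tubb5, a beta tubulin of progenitors and many other cells, had 1312 and 1377 TPM. Tubb3 held 23.1% and 22.3% of the beta sum (22.7% ± 0.560), and Tubb5 held 22.4% and 21.5% (21.9% ± 0.603). Tubb3 was above Tubb5 by 1.03 times in replicate 1 and 1.04 times in replicate 2, yet the values of one gene overlapped those of the other across replicates. Within each library their deposited credibility intervals did not overlap. In replicate 1 these were 1306 to 1329 TPM for Tubb3 and 1268 to 1287 TPM for Tubb5. In replicate 2 they were 1373 to 1398 TPM and 1327 to 1348 TPM. Tubb2a, Tubb3 and Tubb5 together made up 79.8% of the beta sum in replicate 1 and 79.9% in replicate 2.

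Tubb4b and Tubb4a were the lowest of the 6. Tubb4b, found in many tissues and abundant in ciliated cells, had 301.8 and 332.1 TPM, or 5.14% and 5.19% of the beta sum (5.16% ± 0.0302). Tubb4a, a beta tubulin of neurons and of myelinating oligodendrocytes, had 246.3 and 267.1 TPM, or 4.20% and 4.17% (4.18% ± 0.0191). Tubb4b was above Tubb4a by 1.23 times in replicate 1 and 1.24 times in replicate 2, and their replicates did not overlap. The lysine ending of Tubb3 made up 22.7% ± 0.560 of beta tubulin RNA and the alanine endings 77.3% ± 0.560.

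**Figure D2:**
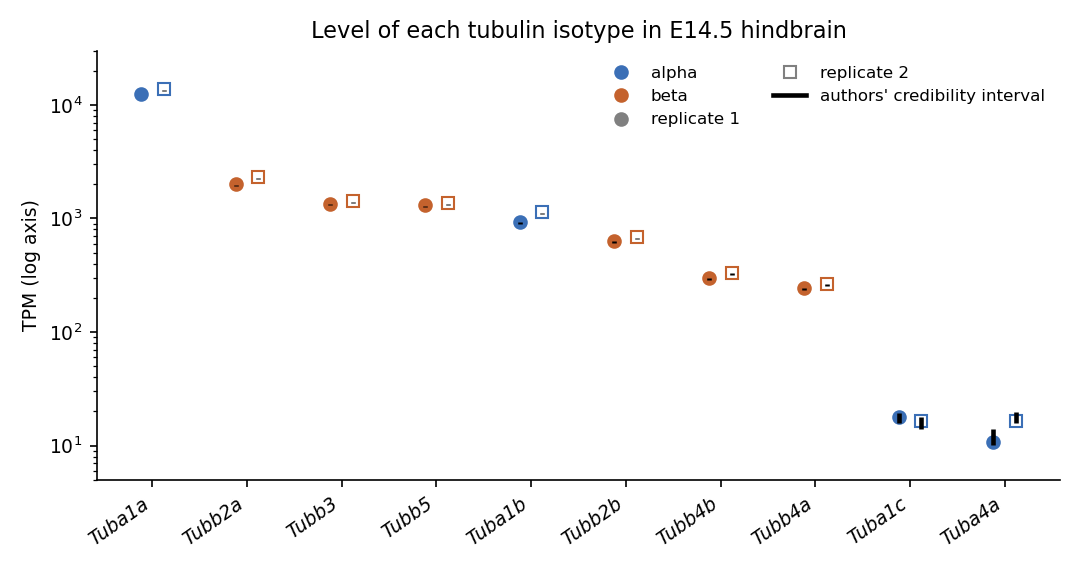
TPM of each isotype on a log axis, ordered by mean, for replicate 1 (filled circles) and replicate 2 (open squares), with alpha isotypes in blue and beta isotypes in orange. Black bars are the authors' credibility intervals, which surround the posterior mean, and Tuba1a lies at 12575 and 13760 TPM while Tuba1c and Tuba4a lie below 20 TPM.

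The order of mean levels was Tuba1a, Tubb2a, Tubb3, Tubb5, Tuba1b, Tubb2b, Tubb4b, Tubb4a, Tuba1c and Tuba4a. Of the 9 steps between neighbours in that order, 7 had both replicates of the higher isotype above both of the lower. The exceptions were Tubb3 with Tubb5, in the same order in both libraries, and Tuba1c with Tuba4a, whose order differed between the libraries. The widest step was between Tubb4a and Tuba1c, whose means differed by 15.0 times, and the step between Tuba1a and Tubb2a was 6.09 times.

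Alpha tubulin RNA exceeded beta tubulin RNA. The 4 alpha isotypes summed to 13543 and 14936 TPM and the 6 beta isotypes to 5867 and 6403 TPM. The ratio of alpha to beta was 2.31 in replicate 1 and 2.33 in replicate 2 (2.32 ± 0.0172, SD, n = 2). Without Tuba1a the remaining alpha isotypes came to 0.165 and 0.184 of the beta sum. The effective number of isotypes, the inverse Simpson index of the shares, was 1.15 and 1.17 for alpha and 4.21 and 4.13 for beta.

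**Figure D3:**
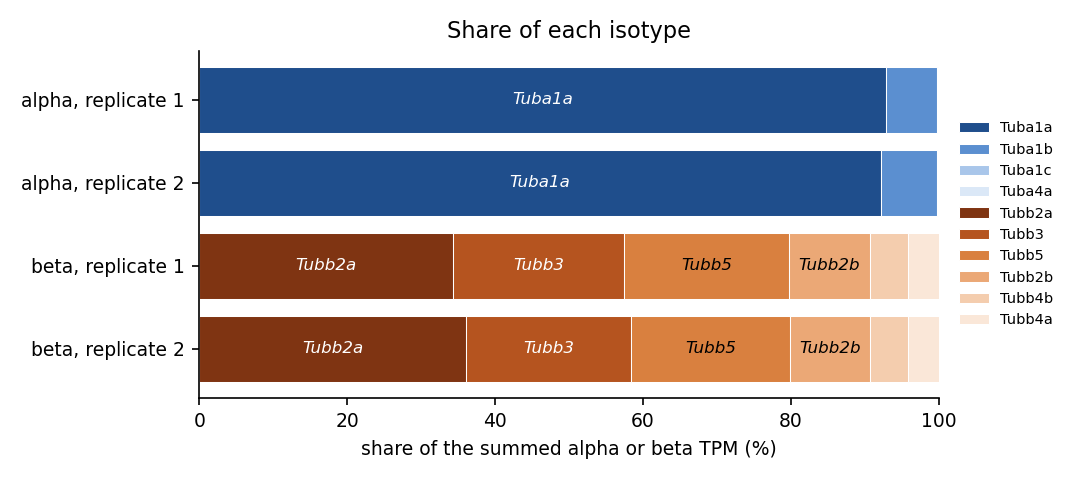
Share of each isotype in the summed alpha or beta TPM of each replicate, as stacked bars from 0 to 100%. Tuba1a takes 92.9% and 92.1% of the alpha bars, and Tubb2a, Tubb3 and Tubb5 together take 79.8% and 79.9% of the beta bars.

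Near-identical genes share reads, so the placement of reads bears on these shares. Every effective length of a member in the files was its length less 99 bases. Windows of 100 bases were therefore compared with all GENCODE M21 transcripts, read on both strands. In Tubb3, Tubb4a and Tubb5 100% of the windows occurred in no other gene. The share of unique windows was 72.3% in Tubb2b, 69.4% in Tubb4b and 63.1% in Tubb2a, and Tubb2a and Tubb2b shared 543 windows with each other. It was lower in the alpha genes, at 53.3% in Tuba4a, 46.6% in Tuba1c, 34.2% in Tuba1a and 27.0% in Tuba1b. The Tuba4a value reflects Stk16 alone, a gene on the opposite strand that shares 1280 windows with it. Of 17 genes outside the isotypes that share windows with them, 12 are in the deposited tables. Those not found there include a protein-coding and a long noncoding RNA gene, which share 531 and 547 windows with Tuba1a. The unique shares count such absent genes too.

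Within the coding part alone the 3 Tuba1 genes lay lowest. Unique windows there were 18.6% in Tuba1a, 8.85% in Tuba1b and 19.4% in Tuba1c, so most coding windows of these 3 genes also occur in another gene. The coding part of Tuba4a was 100% unique, above the 54.9% of Tubb2a, 53.2% of Tubb2b and 64.6% of Tubb4b. In the 3′ untranslated region (3′ UTR) 100% of the Tuba1a and Tuba1c windows were unique, against 50.8% in Tuba1b. Tuba1c shared 799 of its 1883 windows with Tuba1b and 594 with Tuba1a. As Tuba1a and Tuba1b stood far above Tuba1c, the Tuba1c level is uncertain.

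The authors' posterior SD of the count, which carries the doubt from shared reads, followed these shares in part. It was 3.97% and 4.36% of the expected count in Tuba1c and 2.55% and 1.58% in Tuba4a. In Tubb2b it was 0.372% in both replicates, in Tuba1b 0.337% and 0.309%, and in Tubb2a 0.145% and 0.136%. In Tuba1a it was 0.0264% and 0.0270%, small beside its count although few of its windows were unique. In Tubb4a and Tubb5 it was 0 in both replicates.

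**Figure D4:**
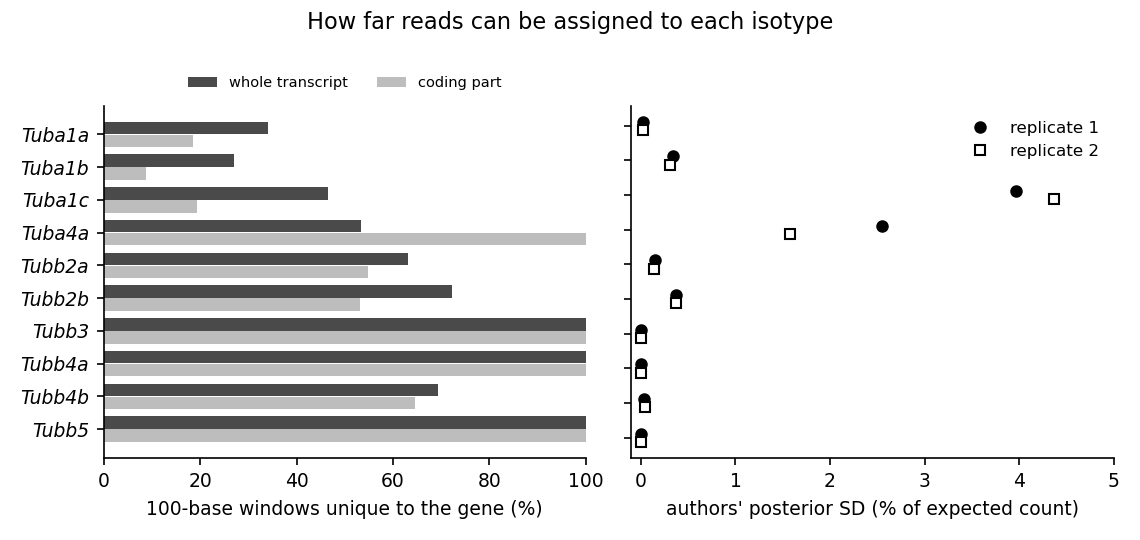
Left, share of 100-base windows that occur in no other M21 gene on either strand, over the whole transcript (dark bars) and the coding part (light bars). Right, the authors' posterior SD as a percentage of the expected count in replicate 1 (filled circles) and replicate 2 (open squares), which is 0 for Tubb4a and Tubb5 and reaches 4.36% for Tuba1c.

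Processed pseudogenes, copies of mRNA inserted elsewhere in the genome, took few of the reads. Windows of the members were shared with 12 such pseudogenes, of which 9 are in the deposited tables. Those 9 summed to 44.0 TPM in replicate 1 and 47.3 TPM in replicate 2, led by Gm14150 at 19.3 and 20.2 TPM. Any read placed on them could belong to a tubulin gene, and the sum is small beside the 19410 and 21339 TPM of the isotypes. It is not small beside Tuba1c, which had 17.9 and 16.3 TPM. Gm14150 alone, which shares 351 windows with Tuba1c, lay above that level in both replicates.

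Tuba4a had a different overlap. Its 3′ end runs into Stk16, a serine/threonine kinase gene on the opposite strand of chromosome 1 (Tuba4a 75214228 to 75219865, minus strand, and Stk16 75210838 to 75215606, plus strand). Of the exonic bases of Tuba4a, 48.6% lie in exons of Stk16 for Tuba4a-202 and 30.5% for Tuba4a-201, against 0% for the other 6 annotated transcripts. With both strands compared, all of its coding windows were unique, but only 1.39% of those in the 3′ UTR were. Stk16 stood at 100.5 and 97.7 TPM. Whether the counting used strand is not given in the sources used here. Without strand, reads of the genes cannot be told apart in the overlap, and the Tuba4a level is uncertain.

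Nearly all RNA of the abundant isotypes was the annotated full coding transcript. The files list 24 transcripts of the 10 genes, and Tuba1c, Tubb2a, Tubb2b, Tubb3 and Tubb4a have 1 each. The main transcript held 98.8% and 98.9% of Tuba1a, 99.0% and 99.3% of Tuba1b, 99.3% and 99.5% of Tubb4b, and 98.5% and 98.0% of Tubb5. In Tubb5 the retained-intron transcript Tubb5-204 held 1.04% in replicate 1 and 1.42% in replicate 2. The retained-intron transcript Tuba1b-202 held 1.04% of Tuba1b in replicate 1 and 0.677% in replicate 2.

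Tuba4a was divided among 8 transcripts, of which 3 were listed at 0 in both replicates. Tuba4a-201, annotated with an incomplete start of the coding sequence, held 52.3% and 58.0% of the gene's TPM. Tuba4a-202, which carries the complete coding sequence, held 20.4% and 23.8%. Tuba4a-206 held 15.7% and 7.71%, from 39.8 and 27.3 expected counts. These shares rest on 423.1 and 631.9 expected counts for the whole gene, and in part on transcripts that overlap Stk16.

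Between the libraries 9 of the 10 isotypes lay within the central 95% of the ratios of all genes, and Tuba4a lay above it. The Tuba4a level is uncertain because of its overlap with Stk16. On the log2(TPM + 1) scale, replicate 2 over replicate 1, the ratio was 0.13 for Tuba1a, 0.28 for Tuba1b, -0.13 for Tuba1c and 0.58 for Tuba4a. Among the beta isotypes it was 0.20 for Tubb2a, 0.11 for Tubb2b, 0.08 for Tubb3, 0.12 for Tubb4a, 0.14 for Tubb4b and 0.07 for Tubb5. Over the 15661 genes whose mean TPM was 1 or more, that range ran between -0.59 and 0.48. The median was 0.12 over the 10 isotypes and 0.05 over all these genes, and 59.1% of all these genes were higher in replicate 2.

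An exact two-sided binomial test on rounded expected counts, scaled by each library's gene total, compared the libraries with counting noise alone. With Benjamini-Hochberg adjustment over 17664 genes and a threshold of 0.05, it called 7 of the 10 isotypes, against 33.9% of all genes tested. Higher in replicate 2 were Tuba1a, Tuba1b, Tuba4a, Tubb2a, Tubb2b and Tubb4b, which is 6 of 10, against 15.6% of all genes. Lower was Tuba1c, 1 of 10, against 18.3% of all genes. Isotypes have many counts. Among the 9450 genes with at least the mean count of the lowest isotype, the test called 44.9% in either direction and 23.8% as higher. This background was chosen after seeing the data. The lowest isotype is Tuba4a, with a mean count of 527.5. All others except Tuba1c had at least 9637 expected counts in each replicate, so this background does not match them in depth.

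The count ratios behind these calls lay between -0.21 and 0.63. The log2 ratio was 0.63 in Tuba4a (adjusted p = 4.58e-11 in the exact binomial test), 0.21 in Tuba1b (adjusted p = 1.30e-82), 0.13 in Tubb2a (adjusted p = 3.68e-53) and 0.06 in Tuba1a (adjusted p = 1.90e-68). It was 0.07 in Tubb4b (adjusted p = 0.00681, exact binomial test), 0.03 in Tubb2b (adjusted p = 0.0412) and -0.21 in Tuba1c (adjusted p = 0.0282). Tubb3 had a count ratio of 0.00 on the log2 scale and Tubb5 one of -0.01, and neither passed (adjusted p = 0.915 and 0.454, exact binomial test), nor did Tubb4a (0.04, adjusted p = 0.0714). The test compares 2 libraries of 1 group and not conditions. Even a design of 2 against 2 samples, which this study does not have, could not go below 0.333 in an exact permutation test.

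The split of calls over all genes moved with the scaling. Of all genes called, 45.9% were higher in replicate 2 when scaled by gene totals, 58.7% when scaled by TMM and 55.8% by DESeq2 size factors. By spike-in totals, which moved the median log2 ratio of all genes to 0.11, 80.8% were higher. Under each of the other 3 scalings 9 of 10 isotypes were called, against 6182, 6096 and 7629 of the 17664 genes tested with TMM, DESeq2 size factors and spike-in totals, the last being 43.2%. All 9 were higher in replicate 2, against 20.5% of all genes tested with TMM, 19.3% with DESeq2 size factors and 34.9% with spike-in totals. The log2 ratio of Tuba1c was -0.18 with TMM, -0.18 with DESeq2 size factors and -0.09 with spike-in totals, and it was called under none of these 3. The 6 isotypes called higher with gene totals were higher under all 4 scalings. The count ratio of Tubb5 was negative with gene totals and positive with the other 3. Tuba4a had the largest ratio among the isotypes in all of them, between 0.58 and 0.76 with TPM included. Its expected counts rose in Tuba4a-201 (236.7 and 370.8 in replicates 1 and 2) and Tuba4a-202 (128.0 and 210.7), which overlap Stk16. Among its transcripts without that overlap, Tuba4a-206 (39.8 and 27.3) and Tuba4a-205 (12 and 4.32) fell and Tuba4a-203 (6.64 and 18.85) rose. The part of Stk16 reads in the Tuba4a ratio was not tested.

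The authors' credibility intervals gave a further view. They did not overlap between the libraries for 9 of the 10 isotypes, all higher in replicate 2, against 22.6% of all genes tested and 16.1% in that direction. The exception was Tuba1c, with 15.7 to 19.4 TPM in replicate 1 and 14.0 to 17.7 TPM in replicate 2. Among genes with at least the mean count of the lowest isotype, a set not matched in depth to most isotypes, the share was 33.5%. With FPKM intervals 5 of the 10 were apart, namely Tuba1a, Tuba1b, Tuba4a, Tubb2a and Tubb4b, against 3537 of the 17664 genes tested.

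**Figure D5:**
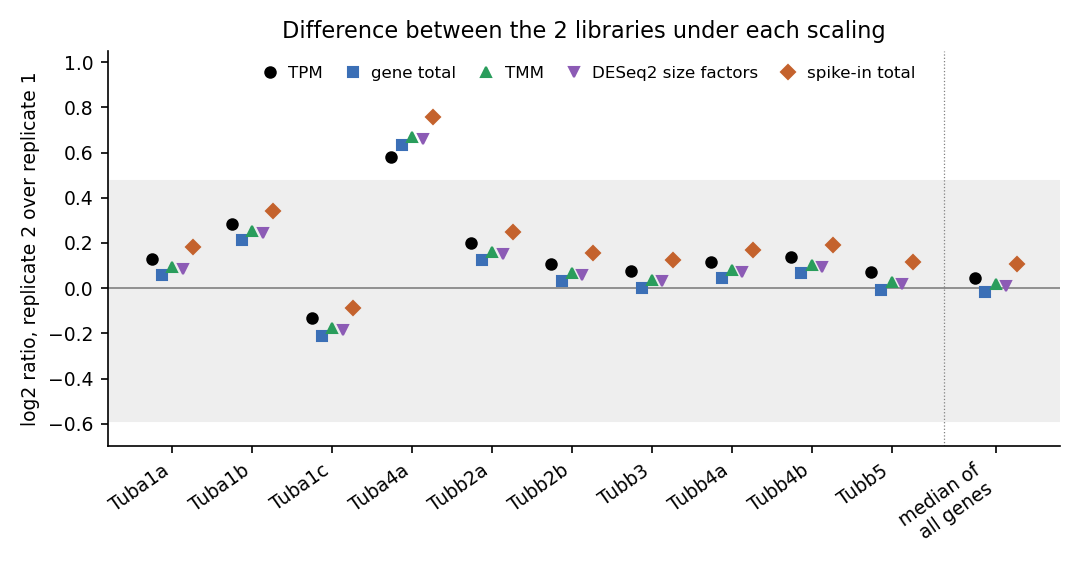
Log2 ratio of replicate 2 over replicate 1 for each isotype and for the median of all genes with at least 1 TPM, under TPM and 4 scalings of the counts. The grey band holds the central 95% of all genes by TPM (-0.59 to 0.48), and Tuba4a is the only isotype above it under each scaling shown. The Tuba4a level is uncertain, since part of its exons lies in exons of Stk16.

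The ratios between beta isotypes given here differed less between the libraries than that of Tuba1a to Tuba1b. The ratio of Tubb3 to Tubb5 differed between libraries by 0.01 on the log2 scale and that of Tubb4b to Tubb4a by 0.02, replicate 2 over replicate 1. That of Tubb2a to Tubb2b differed by 0.09 and that of Tuba1a to Tuba1b by -0.15.

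Other members of the tubulin family were low. Of 10 genes outside the isotypes above, 5 reached 1 TPM in both replicates. Tubg1 and Tubg2, the gamma tubulins that nucleate microtubules, had 50.5 and 51.8 TPM and 38.4 and 40.8 TPM in replicates 1 and 2. Tubb6, a beta tubulin of many non-neural tissues, had 16.3 and 15.4 TPM, so that adding it and Tubb1 to the beta sum left the mean share of Tubb2a at 35.1%. Tubd1 and Tube1, the delta and epsilon tubulins of centrioles, had 4.59 and 4.97 TPM and 4.36 and 5.12 TPM.

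The remaining alpha and beta genes lay below 1 TPM in at least 1 replicate. Tuba8 had 0.81 and 1.13 TPM, Tubb1 of platelets 0.64 and 0.74 TPM, and Tuba3a 0 and 1 expected count. Tuba3b and Tubal3 had 0 counts in both, which at this depth allows up to 0.0889 and 0.0924 CPM of the gene counts in replicates 1 and 2. This limit, 3 counts, covers counting error only. Of 7 genes of this list tested, 0 were called by the exact binomial test with gene totals, beside 33.9% of all genes tested. With spike-in totals 1 was called, beside 43.2% of all genes.

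Genes that fold tubulin were widely expressed. The chaperonin, prefoldin and tubulin cofactors, which fold the chains and assemble the dimer, reached 1 TPM in both replicates in 23 of 24 cases, with Cct6b as the exception at 0.08 and 0.12 TPM. Pfdn5, a prefoldin subunit, had 490.9 and 415.7 TPM. The chaperonin subunits Cct5, Cct3 and Cct6a had 402.2 and 428.8, 364.6 and 407.2, and 350.8 and 390.7 TPM in replicates 1 and 2. Of 23 tested, 5 were called higher and 5 lower in replicate 2, beside 15.6% and 18.3% of all genes tested. With spike-in totals 12 were called higher and 1 lower, beside 34.9% and 8.30% of all genes. Ttc5, named outside the rule after its values were seen, had 91.2 and 94.4 TPM and was not called.

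Genes that modify tubulin were more uneven. Of 30 genes, 23 reached 1 TPM in both replicates. Atat1, the alpha tubulin acetyltransferase, had 320.5 and 311.1 TPM, and Svbp, the partner of the detyrosinating vasohibins, had 197.2 and 176.8 TPM. Nicn1 and Tpgs1, subunits of the tubulin polyglutamylase complex, had 102.2 and 104.3 TPM and 88.4 and 88.3 TPM.

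Of 26 modification genes tested, 3 were called higher and 7 lower in replicate 2, beside 15.6% and 18.3% of all genes tested. The counts were 7 and 6 with TMM factors, beside 20.5% and 14.5% of all genes, and 11 and 3 with spike-in totals, beside 34.9% and 8.30%. The lower ones included Ttll1, the catalytic subunit of the polyglutamylase, at 60.9 TPM in replicate 1 and 48.5 TPM in replicate 2, and Agbl2, a carboxypeptidase of tubulin tails, at 1.35 and 0.53 TPM. Ttl, the ligase that restores the final tyrosine, had 33.6 and 32.6 TPM in replicates 1 and 2, and the vasohibins Vash2 and Vash1 had 80.7 and 88.4 and 24.7 and 22.2 TPM. These 3 genes were named outside the rule, after their values were seen.

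The gamma-tubulin ring complex, the template from which microtubules grow, was detected in full, with 9 of 9 genes at 1 TPM or more. Mzt1 had 74.3 and 61.6 TPM in replicates 1 and 2, Tubgcp2 42.4 and 42.8, Mzt2 41.0 and 38.9, and Tubgcp4 34.0 and 34.5 TPM. Of 9 tested, 1 was called higher and 2 lower in replicate 2, beside the same shares of all genes (15.6% and 18.3%), the lower ones being Mzt1 and Cdk5rap2, the centrosomal recruiter of the complex (9.63 TPM in replicate 1 and 8.08 TPM in replicate 2). The summed level of the complex was 276.7 and 269.5 TPM, that of the folding genes 4675 and 4815 TPM, and that of the modification genes 1360 and 1364 TPM. The median log2(TPM + 1) ratio of replicate 2 over replicate 1 was 0.02 for the ring complex, 0.05 for folding, -0.04 for modification and 0.07 for the other tubulin genes, beside 0.05 over all genes with a mean of 1 TPM or more.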

How the data were processed

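Total RNA-seq of 2 E14.5 mouse hindbrain libraries was used as deposited. The authors assigned reads to mm10 with annotation M4, per the text deposited beside each table. The aligner, quantifier, versions and use of strand were not given in the sources used here. Expected counts, as deposited, estimate the reads of each gene or transcript without normalisation. The deposited TPM sum over all 69691 features, 96 spike-in sequences included, and the deposited FPKM are per length and reads. The authors' posterior SDs and credibility bounds, of unstated level, are score values; the bounds surround the posterior mean, so TPM can lie outside them. The deposited isoform percent was an alternative to shares recomputed from TPM.

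Symbols were matched for 42462 genes and not for 884. Coordinates, transcripts and sequences came from GENCODE M21 (GRCm38), whose models can differ from M4: Tuba1a has 1803 bases there and 1647 in the files. Python 3.11.15, scipy 1.17.1 and Biopython 1.88 were used, with edgeR 4.0.16 and DESeq2 1.42.0 for scaling factors alone. Expected counts were rounded for the exact binomial test, applied to genes with a mean of at least 10. Log2 ratios used a pseudocount of 1, which understates changes of low genes. The test was tried on simulated data. PCR copies of reads cannot be recognised here, so tests and floors cover counting error only.

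Named genes were the members, other tubulin family genes at 1 TPM in both libraries, and of the 3 other lists the 4 highest and the 2 largest log2 ratios among called genes. The remaining family genes, Cct6b, Stk16, Gm14150, Ttr, Folr1 and Kl were named outside this rule, after their values were seen. The members and lists were chosen with earlier results of these data known. Alternatives were other scalings, filters, pseudocounts, units, denominators, window lengths and each replicate left out. The coding ends of 3 alpha isotypes are not reported here.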

Additional observations from a re-analysis of the deposited data

How the results depend on the processing

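Tuba1a kept its place as the main alpha isotype under each alternative tried, with a mean share of 92.0% by expected counts, 92.5% by posterior mean TPM, FPKM, protein-coding transcripts or with all alpha genes in the sum, and 92.1% to 92.9% with each replicate left out. The share of Tubb2a was 34.3% to 36.1% with each replicate left out, but 28.4% by expected counts, which are not corrected for length. There the longer Tubb5 led with 30.0%. The alpha to beta ratio was 2.31 to 2.33 with each replicate left out and 1.95 by expected counts. A minimum change of 2-fold reduced the 5990 genes called between the libraries, 33.9% of the 17664 tested, to 521 and the isotypes called to 0. With a minimum mean count of 1 in place of 10, 5796 genes and 6 isotypes were called, and with 100, 5435 and 7. The share of all genes tested was not computed for these other minimum counts. Of the isotypes called in the main test, Tubb2b was nearest the threshold (adjusted p = 0.0412, exact binomial test). Isotypes with separate intervals numbered 9 by TPM and 5 by FPKM. At a minimum of 10 TPM, 3 of the other tubulin family genes were detected in place of 5. Of 40 alternative log2 ratios of TPM of single isotypes 0 changed sign. Those with another pseudocount could not change sign, and the others used posterior mean TPM or FPKM. Another scaling shifts the log2 count ratio of every gene by the same amount, and why the scalings differ was not tested. Of 30 count ratios under another scaling, 3 changed sign, all of Tubb5, and these became calls. They were 0.0279 with TMM, 0.0196 with DESeq2 size factors and 0.12 with spike-in totals, in place of -0.01. A further 6 became calls (Tubb3, Tubb4a) and 3 lost theirs (Tuba1c). With windows of 50 bases 16.9% of Tuba1b was unique, and with 200 bases 53.8%. No paired analysis was possible because both samples are replicates of 1 group. With 2 replicates an SD is itself imprecise, and the shares of Tuba1c and Tuba4a rest on 720.1 and 597.9 and on 423.1 and 631.9 expected counts.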
